A study of Mus musculus with 6 samples.

Results

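The LGI ligands and their ADAM22-family receptors were examined in RNA-seq of primary oviductal smooth muscle cells from WT and Pbrm1 cKO mice. The 7 genes, of 54232 in the count table, were the 4 ligand genes Lgi1, Lgi2, Lgi3 and Lgi4 and the 3 receptor genes Adam11, Adam22 and Adam23. The family was selected on the large rise of Lgi2 in the cKO libraries, so the values of Lgi2 are a description and carry no test. The other 6 genes were taken as its relatives.

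Cells were isolated on day 2 of pregnancy from oviducts of mice 8 to 12 weeks old, with 3 libraries per group. The cKO group carried a conditional deletion of Pbrm1, which encodes a subunit of the PBAF form of the SWI/SNF chromatin remodeling complex. In the mouse line described by the study, Pbrm1 fl/fl was combined with PR-IRES-cre, a cre driven from the progesterone receptor locus, so that deletion is confined to cells that express the receptor at some time. The labels name the controls WT, whereas a legend of the study names floxed mice and calls the replicates biological. Whether each library was 1 mouse or a pool is not given in the sources used here.

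LGI proteins are secreted, with leucine-rich repeats followed by EPTP repeats that form a propeller. They bind the extracellular parts of ADAM11, ADAM22 and ADAM23, membrane proteins that have the fold of a metalloprotease but no protease activity. The family is best known in the nervous system, where LGI1 joins ADAM22 and ADAM23 across the synapse, LGI4 acts in the myelination of peripheral axons, and variants of LGI1 in people and of LGI2 in dogs cause epilepsy.

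Pbrm1 was checked first. Its level was 170, 183 and 172 CPM (read counts divided by normalized library size) in WT replicates 1, 2 and 3 and 43.5, 50.7 and 42.7 CPM in those of the cKO group, whose mean was 26.0% of that in WT (log2 change -1.94, SE 0.0637, edgeR quasi-likelihood test with Benjamini-Hochberg adjustment, adjusted p = 9.13e-11). Library totals were between 15390818 and 18947947 counts, and a count of 3 corresponded to 0.158 to 0.195 CPM. Markers of smooth muscle ranged widely in WT. Tagln was highest at 1598 CPM, followed by Acta2 at 1287 CPM and Des at 239 CPM. Myh11 was at 88.2 CPM and Myocd was lowest at 4.60 CPM. Markers of other cells were present as well, including the fibroblast gene Pdgfra (747 CPM), the macrophage gene Lyz2 (453 CPM) and the epithelial gene Krt8 (306 CPM), so the libraries were not of muscle alone. In such bulk libraries, fewer cells of a type and less RNA per cell cannot be told apart.

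Lgi2 (ENSMUSG00000039252.11; GRCm38 chr5:52533517-52566462, minus strand) is the gene on which the selection rests. Its sequence just upstream of the outermost start annotated by GENCODE M21 or RefSeq is shown with that of Adam23 (ENSMUSG00000025964.15; chr1:63445891-63596276, plus strand), the receptor gene that was lower in cKO cells, so that the starts of the ligand gene and the receptor gene that moved apart can be compared. Capitals mark CpG dinucleotides. The stretches are from RefSeq promoter windows on GRCm38.p6, 5′ to 3′ on the strand of the gene, at chr5:52566463-52566556 on the minus strand for Lgi2 and chr1:63445641-63445716 on the plus strand for Adam23. The outermost Adam23 start is that of RefSeq, at base 63445717, which is upstream of the start in the count table.
Lgi2: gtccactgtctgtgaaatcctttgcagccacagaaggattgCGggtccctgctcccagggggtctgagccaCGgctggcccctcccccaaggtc
Adam23: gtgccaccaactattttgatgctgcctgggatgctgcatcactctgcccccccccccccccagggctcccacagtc

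The Lgi2 stretch of 94 bases held 2 CpG dinucleotides at 63.8% GC, and the Adam23 stretch of 76 bases held 0 at 64.5% GC. Most CpGs of the windows lay downstream of the printed stretches. The whole windows run from 250 bases before a RefSeq start to 50 after it, and for both genes this start lies downstream of the outermost one. Over these windows Lgi2 had 27 CpGs at 73.3% GC and Adam23 had 31 at 70% GC. Windows of Adam22 and Lgi1 had 19 and 13 CpGs. The median of the 32851 windows of this length was 7 CpGs, and 84.5% of them had fewer than Lgi2 and 89.4% had fewer than Adam23. Both genes thus start in CpG-rich sequence.

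Motifs were searched by letters on both strands of the windows. CCAAT was found in the Lgi2 window alone among the 4 family members with a window, and in 37.4% of all windows. GGGCGG was found in those of Lgi2 and Lgi1, and in 35.7% of all windows. TATAAA was in none of the 4, and in 13.6% of all windows. None of the 3 motifs contains another.

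Lgi2 had a level that separated the groups widely. Counts were 188, 205 and 174 in WT replicates 1, 2 and 3 and 1785, 1169 and 1477 in the cKO libraries. These corresponded to 11.1, 10.96 and 10.2 CPM in the WT group and to 100.4, 62.0 and 95.03 CPM in the cKO group. The groups did not overlap, and the lowest cKO library was 5.58-fold above the highest WT library. CPM ranges did not overlap for 53.5% of all 15376 tested genes.

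The mean level of Lgi2 was 10.8 ± 0.495 CPM in WT against 85.8 ± 20.8 in cKO (SD, n = 3), a fitted log2 fold change of 2.99, or 7.96-fold. Of the genes tested, 17 had a larger fitted rise. Replicate 2 was the lowest cKO library, and the SD of log2 CPM was 0.380 in cKO against 0.0670 in WT. The same library had the highest Pbrm1 level of the cKO group (50.7 CPM), and whether the difference plays a part in the level of Lgi2 was not tested. A low value in this library was not particular to Lgi2. Among cell markers called higher in cKO, Des (500 CPM) and Col15a1 (147 CPM) had their lowest cKO value there. Others, such as Lyz2 (663 CPM) and Csf1r (113 CPM), had their highest there. Leaving out each library in turn, or changing the normalization or the model, gave log2 fold changes of Lgi2 between 2.86 and 3.19.

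Adam23, a receptor for LGI1, LGI2 and LGI3 that is set in the presynaptic membrane of neurons, moved in the other direction. Counts were 184, 198 and 159 in WT and 107, 108 and 104 in cKO replicates 1, 2 and 3. On the CPM scale the WT libraries were at 10.9, 10.6 and 9.31 and the cKO libraries at 6.02, 5.73 and 6.69. Each cKO library lay below each WT library, and the spread within either group was small beside the gap. A lack of overlap was common, at 53.5% of all tested genes.

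The Adam23 mean was 10.3 ± 0.833 CPM in WT, and it fell to 6.15 ± 0.494 CPM in cKO (SD, n = 3), or to 59.9%. On the log2 scale the change was -0.74 (SE 0.114, edgeR quasi-likelihood test with Benjamini-Hochberg adjustment over all genes tested, adjusted p = 0.000145). Lower calls made up 21.8% of tested genes and calls in either direction 43.7%, so a called fall was common in these libraries. The fall was larger in 723 genes, and 10.97% of tested genes changed more in absolute size than Adam23. It was called under all 13 alternatives, with log2 fold changes from -0.81 to -0.69.

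Adam22 (ENSMUSG00000040537.17; chr5:8072352-8368160, minus strand), the receptor that anchors LGI1 and LGI4 at the postsynaptic density and on axons, was measured at a low level. Counts were 16, 36 and 14 in WT and 22, 31 and 23 in cKO replicates 1, 2 and 3. As CPM these were 0.945, 1.92 and 0.820 for WT and 1.24, 1.64 and 1.48 for cKO. WT replicate 2 was the highest of the 6 libraries and the other WT libraries were the lowest, so the groups overlapped. The log2 fold change of 0.22 (SE 0.316) was not called (edgeR quasi-likelihood test with Benjamini-Hochberg adjustment, adjusted p = 0.606). Without WT replicate 2 it was 0.72, with adjusted p = 0.0946 in the same test, so its size rested on that library and it was not called either way.

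The other 4 members did not pass the filter on low counts and were not tested in the main fit. Lgi4 (ENSMUSG00000036560.14; chr7:31059342-31070935, plus strand), the ligand secreted by Schwann cells, had 8, 11 and 7 counts in WT and 13, 10 and 4 in cKO, or 26 and 27 counts per group. Adam11 (ENSMUSG00000020926.16; chr11:102761439-102780262, plus strand), a receptor found on cerebellar interneurons, had 5, 10 and 4 counts in WT and 8, 12 and 4 in cKO. For both genes the cKO range enclosed or overlapped the WT range.

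Lgi3 (ENSMUSG00000033595.7; chr14:70530685-70538324, plus strand), a ligand best known from brain, had 3, 4 and 6 counts in WT and 7, 2 and 3 in cKO. Lgi1 (ENSMUSG00000067242.11; chr19:38264536-38312214, plus strand), the epilepsy gene, had 1, 1 and 2 counts in WT and 2, 1 and 2 in cKO. Lgi1 was thus under 3 counts in all 6 libraries, and for Lgi3 too the groups overlapped. With 3 of 7 members tested, the family had 1 gene with a described rise, 1 called lower and 1 not called. Lower calls made up 21.8% of all tested genes, and calls in either direction 43.7%.

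**Figure D1:**
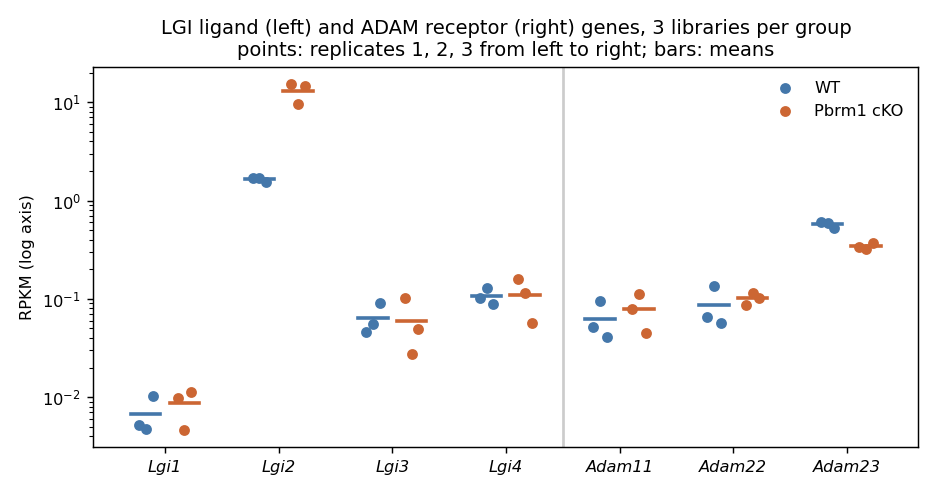
RPKM of the 4 ligand and 3 receptor genes in each of 6 libraries on a log axis, with a point per library and a bar at each group mean. Lgi2 lies above the other members in both groups, Adam23 is second with its cKO points below its WT points, and the points of both groups overlap for each of the other 5 members.

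Levels of different members were compared per length, as RPKM (CPM per kilobase of annotated exon). Lgi2 was at 1.65 ± 0.0758 RPKM in WT and Adam23 at 0.573 ± 0.0465 RPKM (SD, n = 3). Next came Lgi4 at 0.107, Adam22 at 0.0857, Lgi3 at 0.0635 and Adam11 at 0.0626 RPKM, and Lgi1 was last at 0.00674 RPKM. The ranges of neighbors in this order overlapped from Lgi4 to Adam11, so those 4 genes could not be ranked. In cKO the order was the same except that Adam11 (0.0790 RPKM) and Lgi3 (0.0592 RPKM), whose ranges overlapped, changed places.

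In both groups Lgi2 and Adam23 stood apart from the other 5 genes, which were at most 0.159 RPKM in any library, while Adam23 was at least 0.320 RPKM. The RPKM of Lgi2 was 2.80, 2.84 and 3.002 times that of Adam23 in the WT libraries and 45.8, 29.7 and 38.96 times in the cKO libraries. The mean ratio was 2.88 ± 0.106 in WT and 38.1 ± 8.07 in cKO (SD, n = 3). This ratio contains Lgi2 and is given as a description. Per kilobase of annotated exon, Lgi2 was thus above the most abundant receptor gene in WT already, and the distance between them was wider in every cKO library. The size of the WT gap depends on the length used. Annotated exons of Adam23 cover 17907 bases, but its transcript with the longest coding sequence has 6426. For Lgi2 these lengths were 6528 and 6456 bases. Without division by length, the WT means of Lgi2 and Adam23 were close, at 10.8 and 10.3 CPM.

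The reads of the members could mostly be assigned without ambiguity. Among GENCODE M21 transcripts, no other gene matched Lgi2, Lgi3, Lgi4, Adam11, Adam22 or Adam23 at 95% identity or more, and no member matched another. Lgi1 had 1 such match, over 1240 bases, to the processed pseudogene Gm3888, which had 1 count in the 6 libraries. Annotated coding lengths were alike within each class, from 1611 bases in Lgi4 to 1671 in Lgi1 for ligands, and from 2334 bases in Adam11 to 2781 in Adam22 for receptors.

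Within the body of Lgi2, on the same strand, lies the unclassified transcript Gm43686 (chr5:52542906-52545344). It had 1, 0 and 0 counts in WT against 10, 6 and 11 in cKO. Gm43685, on the opposite strand within Lgi2, was at 0 in all 6 libraries, which allows up to 0.195 CPM in the shallowest. The 3′ part of Lgi4 overlaps Fxyd3 on the opposite strand. Fxyd3, a regulator of the sodium pump, had 23, 31 and 44 counts in WT and 88, 82 and 67 in cKO, and reads were counted by strand.

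The tested protein-coding genes whose pattern over the 6 libraries was nearest to that of Lgi2 were Ifi205, Scn7a, Armh4, Isg15 and Asic3. Likeness was the Euclidean distance between log2 CPM values centred on the mean of the 6 libraries (0.5 counts added before the logarithm), among genes with a mean of at least 5 CPM, and distances were 0.337, 0.399, 0.412, 0.514 and 0.535. The list follows from the values of Lgi2 itself and carries no test. Ifi205 and Isg15 are interferon-induced genes, Scn7a encodes a sodium channel of the Nax type, and Asic3 encodes an acid-sensing ion channel.

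Ifi205 was at 3.07, 2.78 and 2.52 CPM in WT against 22.2, 13.9 and 20.1 CPM in cKO replicates 1, 2 and 3. Isg15 was at 7.27, 8.13 and 5.91 CPM in WT against 55.8, 30.2 and 48.0 CPM in cKO. Scn7a was at 2.30, 2.41 and 2.17 CPM in WT against 16.5, 12.6 and 16.3 CPM in cKO. All 3 genes, like Lgi2, had their lowest cKO value in replicate 2.

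Armh4 went from a mean of 3.28 ± 0.315 CPM to 23.1 ± 3.54 CPM, and Asic3 from 1.03 ± 0.270 CPM to 9.64 ± 2.35 CPM (SD, n = 3). Their lowest cKO values, 18.99 CPM for Armh4 and 7.06 CPM for Asic3, were also in replicate 2. None of these genes is a known partner of LGI proteins in the lists used here, and they lie on chromosomes 1, 2, 14, 4 and 5.

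**Figure D2:**
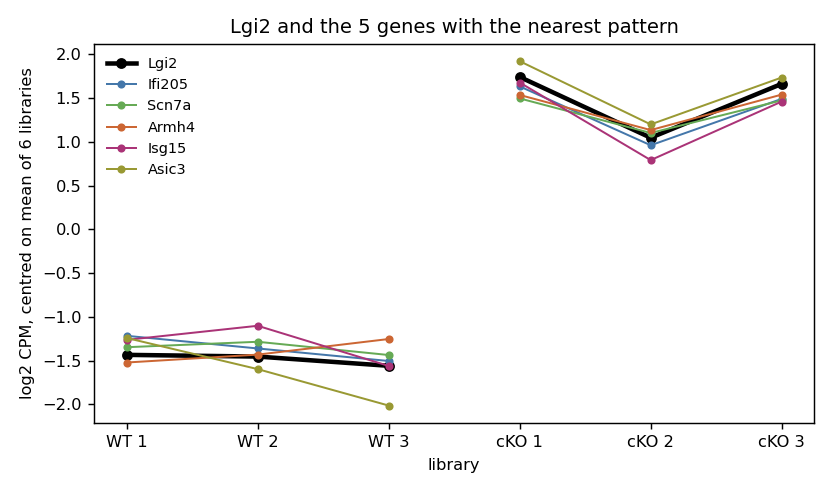
Log2 CPM (with no count added) of Lgi2 and of the 5 genes with the nearest pattern, each centred on its mean over the 6 libraries, with lines joining the libraries of 1 group. All 6 genes are low in the 3 WT libraries, high in the 3 cKO libraries and lowest within the cKO group in replicate 2.

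The position of Lgi2 on chromosome 5 was not used in choosing the family, so its neighbors were tested. Of 9 tested genes that start within 500 kb, 3 were called, 2 higher and 1 lower (33.3%, against 43.7% of all genes). Sod3, which encodes the extracellular superoxide dismutase and starts 203 kb from the start of Lgi2, had 87, 87 and 81 counts in WT and 369, 249 and 315 in cKO. Its mean was 4.84 ± 0.260 CPM in WT against 18.1 ± 4.22 in cKO (SD, n = 3), a log2 change of 1.89 (SE 0.165, edgeR adjusted p = 1.01e-06). Every cKO library was above every WT library (ranges did not overlap for 53.5% of all tested genes), and replicate 2 was again the lowest of the cKO group.

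Pi4k2b, a phosphatidylinositol kinase gene, was higher by 0.29 on the log2 scale and the RNA helicase gene Dhx15 was lower by 0.22 (log2 fold change -0.22; edgeR adjusted p = 0.00117 and 0.00105). The 2 tested genes whose starts are closest to that of Lgi2 were not called. Ccdc149, at 94.9 kb, was at 4.14 and 4.26 CPM in WT and cKO, and Sepsecs, at 103 kb, was at 25.4 and 27.0 CPM. Zcchc4, Anapc4, Slc34a2 and 9230114K14Rik were not called either, with log2 fold changes between -0.26 and 0.03. The rise of Lgi2 thus stood beside a called rise of Sod3, while Ccdc149, which lies between them, was not called.

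Among all members, 44 of 99 tested neighbors were called (44.4%), 22 higher and 22 lower, a share close to that of all genes. Around Adam22, 6 of 7 neighbors were called, 3 in each direction, including Steap4, a metalloreductase gene, which rose from 5.67 ± 0.704 CPM to 23.1 ± 4.97 CPM (log2 change 2.02, SE 0.158, edgeR adjusted p = 3.72e-07). Around Adam23, 2 of 9 were called. Zdbf2, an imprinted gene 173 kb away, fell by 1.24 on the log2 scale (SE 0.166, edgeR adjusted p = 4.66e-05) and Eef1b2, a translation elongation factor gene, rose by 0.15 (edgeR adjusted p = 0.00716).

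**Figure D3:**
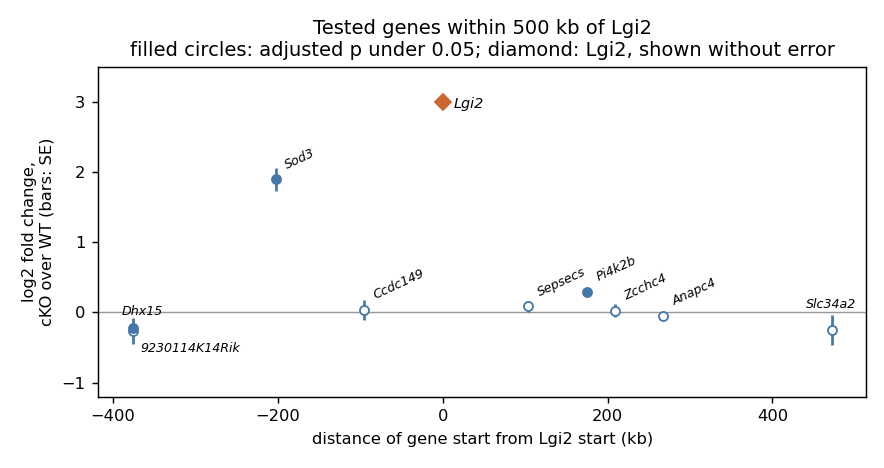
Log2 fold change of cKO over WT for the 9 tested genes within 500 kb of Lgi2 against the distance of their starts from that of Lgi2 in kb, with bars for the SE and filled circles for called genes. Lgi2 (diamond, no error drawn) and Sod3 lie well above zero, and the other 8 genes lie between -0.26 and 0.29.

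Genes known to bind or act with LGI and ADAM22-family proteins were examined next, as 35 genes listed from knowledge of the pathway. Of these, 24 passed the filter and 13 were called (54.2%, against 43.7% of all genes), 6 higher and 7 lower. The called genes include Gria4 and Cntnap2, which passed the filter only through the group where they were higher. Their median log2 fold change was 0.11, and that of all tested genes was 0.00156. The remaining 11 were under the filter, and Cacng2 and Cacng3, which encode AMPA receptor auxiliary subunits bound by the LGI1 complex in brain, were at 0 in all 6 libraries.

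Scaffold genes encode the PDZ proteins that hold the ADAM22 tail. Dlg4, for the postsynaptic scaffold PSD-95 to which ADAM22 binds, was at 56.1 ± 2.22 CPM in WT against 61.6 ± 5.11 in cKO (SD, n = 3) and was not called, nor were Dlg1, Dlg3 and Cask. Dlg2 rose from 1.88 ± 0.169 CPM to 4.26 ± 0.765 CPM (log2 change 1.17, SE 0.188, edgeR adjusted p = 0.000217). Lin7c fell from 186 ± 8.72 CPM to 149 ± 7.29 CPM (log2 fold change -0.32, edgeR adjusted p = 0.000186). Both of these were without overlap between the groups, as were 53.5% of all tested genes.

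The 14-3-3 proteins bind the cytoplasmic tail of ADAM22 and steady it at the cell surface. All 7 genes were tested and 4 were called (57.1%, against 43.7% of all genes). Ywhag, Ywhah and Ywhaz were lower, at 82.7%, 87.2% and 86.8% of their WT means, and Sfn was higher, at 135% of its WT mean of 18.8 CPM (edgeR adjusted p from 0.00105 for Sfn to 0.0144 for Ywhaz). Ywhab, Ywhae and Ywhaq were not called, with log2 fold changes of -0.14, -0.10 and 0.11. The Ywhaz call was lost without WT replicate 2 and without cKO replicate 3, and the Ywhag call without WT replicate 2.

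Kv1 potassium channel complexes carry LGI1 and ADAM22 at axons. The pore genes Kcna1, Kcna2, Kcna4 and Kcna6 were all under the filter, with group means of at most 0.476 CPM. Of the associated genes, Cntn2, an axonal adhesion molecule, rose from 2.11 ± 0.103 CPM to 4.59 ± 0.462 CPM (log2 change 1.12, SE 0.164, edgeR adjusted p = 9.9e-05). Cntnap2, its partner at the juxtaparanode, went from 1.15 ± 0.239 CPM to 0.460 ± 0.189 CPM (log2 change -1.32, SE 0.353, edgeR adjusted p = 0.00826). Counts of Cntnap2 were 15, 23 and 23 in WT and 12, 6 and 6 in cKO, so it passed the filter only through the WT libraries, where it was higher. The channel subunit gene Kcnab1 fell by 0.51 on the log2 scale (edgeR adjusted p = 0.00148), and Kcnab2 was at 112% of WT and not called.

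AMPA receptor genes encode the glutamate receptors that the LGI1 and ADAM22 complex holds at synapses. Gria3, the most abundant, was at 13.95 ± 0.400 CPM in WT against 13.6 ± 0.989 in cKO (SD, n = 3) and was not called. Gria4 rose from 0.207 ± 0.0525 CPM to 0.647 ± 0.0854 CPM (log2 change 1.61, SE 0.420, edgeR adjusted p = 0.00697). The Gria4 call was lost with DESeq2 (adjusted p = 0.0549), and its WT level was near that of 3 counts. Its counts were 3, 5 and 3 in WT and 11, 14 and 9 in cKO. It thus passed the filter only through the cKO libraries, where it was higher, and its p-value carries that limit. Gria1 was not called, and Gria2 was under the filter.

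Of other surface partners, 3 of 4 were called (75%, against 43.7% of all genes). Itgb3, an integrin subunit gene, fell to 84.4% of WT (-0.24 on the log2 scale, SE 0.0601, edgeR adjusted p = 0.00509). Itgav, an integrin subunit to which ADAM23 has been described to bind as a dimer with Itgb3, was at 110% of WT (edgeR adjusted p = 0.0346) and Rtn4r, the Nogo receptor gene, at 197% (edgeR adjusted p = 0.0242). The groups overlapped for Itgav and Rtn4r, and their calls were lost in 3 and 5 of 13 alternatives. Stx1a was at 109% of WT and not called.

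**Figure D4:**
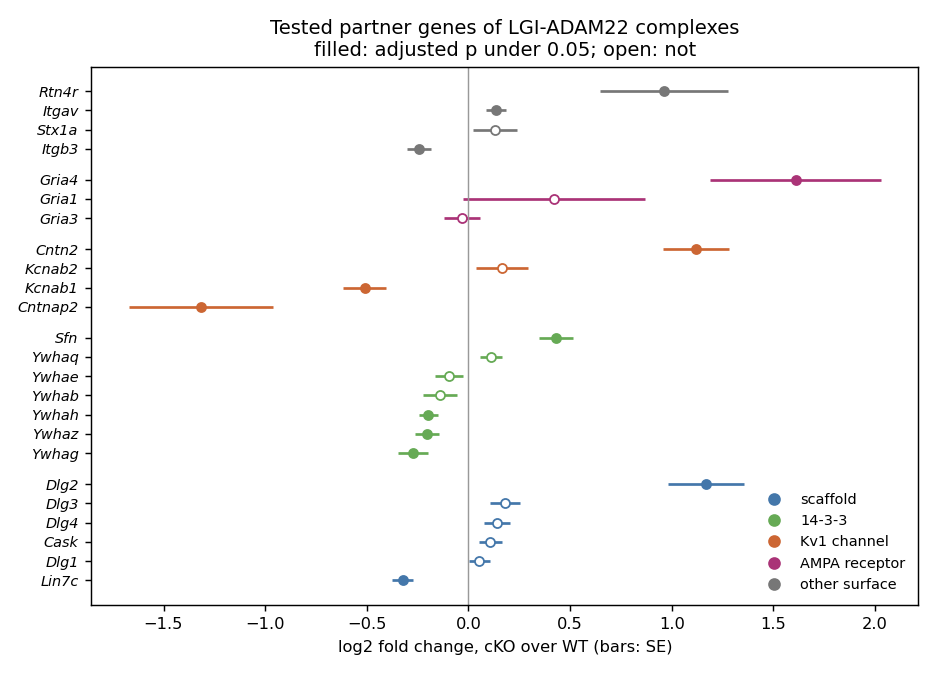
Log2 fold change of cKO over WT for the 24 tested partner genes, grouped by role, with bars for the SE and filled circles for genes with an adjusted p under 0.05. Gria4, Dlg2, Cntn2 and Rtn4r lie furthest to the right and Cntnap2 furthest to the left, and most of the other genes lie within 0.5 of zero.

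Genes that share a domain with the family were set beside it. Adgrv1, a very large adhesion receptor whose extracellular part has EPTP repeats like those of LGI proteins, fell from 1.89 ± 0.359 CPM to 0.428 ± 0.100 CPM (log2 change -2.15, SE 0.307, edgeR adjusted p = 8.39e-05). Tspear, the other EPTP gene, was under the filter. Adgrv1 had 25, 40 and 35 counts in WT and 8, 6 and 8 in cKO. Its groups did not overlap, as was so for 53.5% of all tested genes. It passed the main filter only through the WT libraries, where it was higher, and its p-value carries that limit. It was left out by the filter of 10 counts in every library.

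The ADAM genes outside this family are mostly active proteases and ranged from below Adam22 to far above Adam23 in CPM, with Adam33 and Adam28 the lowest. Of 9 tested, 7 were called (77.8%, against 43.7% of all genes), 5 higher and 2 lower. Adam8, an ADAM of leukocytes, rose from 105 ± 2.08 CPM to 184 ± 7.81 CPM (log2 change 0.81, SE 0.0469, edgeR adjusted p = 2.52e-08). Adam9 and Adam17, the latter the sheddase of tumor necrosis factor, rose by 0.45 and 0.26 on the log2 scale (edgeR adjusted p = 0.000114 and 0.000415), as did Adam19 by 0.21 and Adam28 by 0.69. The Adam28 call was lost in 3 of 13 alternatives (adjusted p = 0.0694 with DESeq2, and with edgeR 0.0952 without WT replicate 1 and 0.0579 without cKO replicate 2).

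Adam12 fell by 0.26 on the log2 scale (edgeR adjusted p = 0.000397), and Adam15 by 0.14 (edgeR adjusted p = 0.0479), a call that was lost in 9 of 13 alternatives. Adam10 was at 92.2% of WT and Adam33 at 0.525 ± 0.206 CPM in WT against 0.780 ± 0.106 in cKO, and neither was called. The fall of Adam23 by 0.74 exceeded those of Adam12 and Adam15 in size, although the difference between these genes was not tested.

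Marker lists of other cells moved between the groups as well. Summed fibroblast markers were at 1273 to 1291 CPM in WT against 2183 to 2345 in cKO, with 6 of 8 genes higher and 1 lower. Summed leukocyte markers were at 633 to 684 CPM in WT against 891 to 966 in cKO, with 6 of 6 tested genes higher. Summed smooth muscle markers were at 3498 to 3570 CPM in WT against 4272 to 4769 in cKO, with 5 of 10 higher and 1 lower. Acta2 and Tagln made up most of that sum. Epithelial markers were at 758 to 826 CPM in WT and 895 to 998 CPM in cKO, with 5 of 7 higher. Higher calls made up 21.9% of all tested genes. Summed endothelial markers were lower in cKO, at 213 to 228 CPM against 277 to 297 in WT, with 1 of 5 genes lower (Kdr, from 182 to 99.4 CPM) and 1 higher (Vwf, from 4.35 to 14.2 CPM). The part of these cells in the levels of Lgi2 and Adam23 was not tested.

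Because the family is known from nerve, markers of neurons and Schwann cells were read in the same libraries. Rbfox3 was at 0 in all 6 libraries, Snap25 had a mean of 0 CPM in WT against 0.0177 in cKO, and the Schwann cell genes Sox10, S100b, Foxd3 and Cdh19 were under the filter, at most at 0.361 CPM as a group mean. Summed Schwann markers were at 178 to 183 CPM in WT against 169 to 170 in cKO, nearly all from Egr2, Mbp, Ngfr and Erbb3, which other cells express too. Summed neuron markers were at 13.2 to 15.5 CPM in WT against 15.5 to 18.7 in cKO, with 2 of 5 tested genes higher and 1 lower. Over all tested genes, 21.9% were called higher and 21.8% lower. Tubb3 rose from 6.88 to 11.3 CPM and Syt1 from 1.40 to 2.68 CPM, and Stmn2 fell from 3.27 to 1.20 CPM (edgeR adjusted p = 0.00208, 0.00343 and 0.000301). The part of nerve cells in the levels of Lgi2 and Adam23 was not tested.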

How the data were processed

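RNA-seq was performed on 3 WT and 3 Pbrm1 cKO libraries, made strand-specific with random and poly(T) priming. The deposited table held whole-number counts per gene, not normalized. Per the file headers, the authors counted reads with featureCounts 1.6.4 over GENCODE M18 exons with strand setting 2 (reverse), which by default leaves out reads that map to several places. The submitters' processing notes name cutadapt, HISAT2 and GRCm38.p5 without options. The table also gave exon lengths, used for RPKM. Symbols came from GENCODE M21 for 54079 of 54232 genes (99.7%).

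Counts were tested with edgeR 4.0.16 in R 4.3.3 (TMM normalization, filterByExpr, two-sided quasi-likelihood F-test) with Benjamini-Hochberg adjustment over 15376 genes and a threshold of 0.05. The script was tested on simulated data. The study used DESeq2 for its uterine libraries, and DESeq2 1.42.0 was an alternative here, as were limma-voom (limma 3.58.1), other normalizations and filters, a block for replicate number, and omission of each library in turn. No 2 libraries of a group agreed within sampling noise (chi-square per gene 1.31 to 1.60), and each was taken as 1 replicate. The highest of these values were those of the pairs with cKO replicate 2 (1.49 and 1.60). SD is over the n = 3 libraries of a group. SE is that of the fitted log2 fold change, from the edgeR model over all 6 libraries. Limits from counts cover counting error only, since reads carried no molecular identifiers. Copies were searched with BLAST 2.17.0.

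Members and gene lists were chosen with earlier results of these data known. Named genes were all members, the called genes of the partner and domain lists (up to 8 per list), the tested neighbors of Lgi2 within 500 kb, the 5 nearest patterns and the markers. Called neighbors of Adam22 and Adam23, partner genes that were not called, and overlapping genes were named after their values were seen. RefSeq promoter windows matched 4 of 7 members. Protein sequences were not used here.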

Additional observations from a re-analysis of the deposited data

How the results depend on the processing

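The fall of Adam23 was called in all 13 alternatives (adjusted p between 2.98e-08 and 0.00127 over edgeR, DESeq2 and limma-voom fits), and Adam22 was called in none (log2 fold change 0.00098 to 0.717, adjusted p 0.0946 to 0.999). DESeq2 called 5535 genes and edgeR 6723. Leaving out 1 library at a time gave between 5532 and 7054 called genes, 1 called member other than Lgi2 each time, 11 to 15 partner genes, 5 to 7 other ADAM genes and 34 to 41 neighbors. Without WT replicate 2, 5532 of all 15631 tested genes were called, with 11 of 25 partner genes, 6 of 9 other ADAM genes and 34 of 101 neighbors. Without cKO replicate 2, 7054 of all 15671 were called, with 15 of 26, 5 of 9 and 41 of 101 in the same order. The count of called neighbors followed the window by construction, with 25 of 55 at 250 kb and 74 of 167 at 1000 kb. Changes of Ccdc149 and Zcchc4 near zero turned sign: Ccdc149 was -0.0273 without cKO replicate 1 and -0.00313 without cKO replicate 3 (range -0.0273 to 0.145), and Zcchc4 was -0.0510 without cKO replicate 2 (range -0.0510 to 0.102). Libraries with the same replicate number did not deviate together from their group means (correlations of deviations -0.0204, 0.0346 and 0.0873). Whether they were prepared as pairs is not given in the sources used here. In a fit with a replicate block, 6908 genes were called, of which 6617 were called without it, Adam23 had a log2 fold change of -0.74 (adjusted p = 0.000263), and of the called genes named here Adam15 was lost (adjusted p = 0.0513). Scaling by library size alone moved the median log2 fold change by 0.0174. With mitochondrial genes left out of the library totals, Lgi2 was at 1.78 RPKM in WT and Adam23 at 0.372 RPKM in cKO. Low counts kept Lgi1, Lgi3, Lgi4 and Adam11 under the filter of the main fit. In the fit without a filter all 6 members other than Lgi2 were tested, and Adam23 alone was called. At such low counts, the lack of a call does not show that a difference is absent.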
